A study of Mus musculus with 6 samples.

Results

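The mitochondrial genome of the mouse encodes 13 mRNAs, and 6 of them encode subunits of respiratory complexes III, IV and V: mt-Cytb, mt-Co1, mt-Co2, mt-Co3, mt-Atp6 and mt-Atp8. These 6 genes, found by their symbols in the GENCODE M21 annotation of GRCm38, were followed among the 54532 genes listed for each RNA-seq library, and the other 7 mitochondrial mRNAs encode subunits of complex I. They were chosen by the complexes they belong to and with their FPKM in these control and PGAM5 KD libraries already known, so their levels and fold changes are given as a description, without a test.

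The cells were iBMDMs that had received LPS at 100 ng/ml for 4 hours, with 3 libraries from control and 3 from PGAM5 KD cells. iBMDMs are bone marrow-derived macrophages of the mouse that grow as a line after infection with retroviruses carrying v-raf and v-myc, and a lentivirus delivered either a control shRNA or an shRNA against Pgam5, the gene of a mitochondrial phosphatase. Each group carried its own shRNA and no untreated library was used here, so the knockdown, the shRNA and the infected line cannot be told apart, and the values hold for LPS-treated cells. Whether the replicates came from separate cultures or infections is not given, and p-values then measure only the spread between these libraries, which may be technical. Pgam5 was at 13.0 to 17.1 FPKM in control and 4.33 to 5.75 FPKM in PGAM5 KD libraries (log2 fold change -1.40).

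Mitochondrial DNA is transcribed from both strands into long precursor RNAs, and excision of the tRNAs that lie between the coding regions frees most of the mRNAs, which then receive short poly(A) tails. The proteins are made on mitochondrial ribosomes and join nuclear-encoded subunits in the inner membrane. Complex III carries electrons from ubiquinol to cytochrome c, complex IV carries them on to oxygen, and complex V, the ATP synthase, uses the proton gradient to make ATP. Macrophages stimulated with LPS are known to shift their energy metabolism towards glycolysis.

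All 6 genes lie on the plus strand of the mitochondrial chromosome and consist of 1 exon each. mt-Co1 (ENSMUSG00000064351) is at chrM:5328-6872, mt-Co2 (ENSMUSG00000064354) at chrM:7013-7696, mt-Atp8 (ENSMUSG00000064356) at chrM:7766-7969, mt-Atp6 (ENSMUSG00000064357) at chrM:7927-8607, mt-Co3 (ENSMUSG00000064358) at chrM:8607-9390 and mt-Cytb (ENSMUSG00000064370) at chrM:14145-15288. The last 43 bases of mt-Atp8 are also the first 43 of mt-Atp6, and the last base of mt-Atp6 is the first of mt-Co3. mt-Atp8 is shown whole, since this overlap bears on how its fragments can be counted. The capitals mark the bases it shares with mt-Atp6.
mt-Atp8: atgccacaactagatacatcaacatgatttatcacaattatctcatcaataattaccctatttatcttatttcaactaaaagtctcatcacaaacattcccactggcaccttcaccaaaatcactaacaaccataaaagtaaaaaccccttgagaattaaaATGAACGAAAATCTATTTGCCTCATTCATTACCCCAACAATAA

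The annotated genes end in 1 of 2 ways, which is why their last 30 bases are shown. The capitals mark the stop codon as far as the DNA encodes it. In mt-Cytb and mt-Co3 only its T is encoded, and the poly(A) tail is known to supply the rest, so a tail is part of the reading frame of these mRNAs. The other 4 encode a whole TAA. The libraries were made from RNA held on poly-T beads, so mRNAs were measured through their tails, and tail length was not measured.
mt-Cytb, chrM:15259-15288: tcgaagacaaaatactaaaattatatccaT
mt-Co3, chrM:9361-9390: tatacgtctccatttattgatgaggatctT
mt-Co1, chrM:6843-6872: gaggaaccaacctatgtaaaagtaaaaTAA
mt-Atp6, chrM:8578-8607: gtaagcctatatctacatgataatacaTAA

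Pieces of mitochondrial DNA are also present in the nuclear genome, and 3 of the 6 genes have an annotated nuclear copy that cannot be told from the mitochondrial one along almost its whole length. On the minus strand of chromosome 1, 4 pseudogenes lie side by side in the order of their mitochondrial counterparts, within chr1:24613189-24616197 of GRCm38. Gm28661 matched mt-Co2 over 681 bases, Gm10925 matched mt-Atp6 over 678 bases and Gm28437 matched mt-Co3 over 783 bases, each at 100% identity. Gm29216 matched the last part of mt-Co1 over 483 bases, 31.3% of that gene, with 1 mismatch, A1066T, counted from the first base of mt-Co1. mt-Cytb has no such copy. Its closest annotated relative in the nucleus, Gm11410 on the plus strand of chromosome 4, was 92.9% identical over 1142 bases, and the longest run without a mismatch was 47 bases. For mt-Atp8 no annotated nuclear gene matched over at least 100 bases, but the 43 bases it shares with mt-Atp6 are also in Gm10925. A pair of windows shows the contrast between mt-Atp6, whose first 60 bases are the same in the nucleus, and mt-Cytb, which differs from its relative at 3 of 60 bases, marked by capitals. The window of mt-Co1 is the stretch that holds its single mismatch, also in capitals.
mt-Atp6, chrM:7927-7986: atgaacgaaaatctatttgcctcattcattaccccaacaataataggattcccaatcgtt
Gm10925, chr1:24614592-24614651, minus strand: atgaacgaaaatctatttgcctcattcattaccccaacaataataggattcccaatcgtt
mt-Cytb, chrM:14146-14205: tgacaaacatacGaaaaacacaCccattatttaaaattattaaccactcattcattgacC
Gm11410, chr4:80003990-80004049, plus strand: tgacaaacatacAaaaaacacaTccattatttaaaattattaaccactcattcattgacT
mt-Co1, chrM:6390-6423: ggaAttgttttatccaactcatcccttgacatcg
Gm29216, chr1:24616155-24616188, minus strand: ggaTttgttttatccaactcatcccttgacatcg

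Expression was measured as FPKM, the fragments on a gene per kilobase of its exons, divided by library depth. Recovered depth was 18163462 to 24388914 fragments, and 1 fragment on 1 kb of exon was worth 0.0410 to 0.0551 FPKM. Genes of the mitochondrial chromosome took 0.955% to 1.01% of the fragments in control and 0.607% to 0.672% in PGAM5 KD libraries. The 6 genes took 0.523%, 0.555% and 0.549% in the control and 0.375%, 0.366% and 0.344% in the PGAM5 KD libraries, and mt-Co1 and mt-Cytb held 99.2% to 99.4% of these. In RNA from whole cultures, fewer mitochondria per cell and less RNA per mitochondrion cannot be told apart. The cell type label was checked by its markers. Of 8 macrophage markers, 7 were above the filter and Mertk was at 0 in every library. Their summed level was 2802 to 2894 FPKM in control and 2526 to 2544 FPKM in PGAM5 KD libraries, with Lyz2 as the largest part. Lyz2, Csf1r and Cd68 were lower in PGAM5 KD cells, and Fcgr1, Adgre1, Itgam and Cd14 were higher, at 148% to 325% of control. The part of these markers in the results was not tested. The summed markers of neutrophils, fibroblasts and lymphocytes, 6 of each, reached at most 0.568 FPKM in any library, and 4 of each 6 were at 0 in all.

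The FPKM assigned to 5 of the 6 genes was lower in PGAM5 KD cells, at 45.7% to 70.2% of control, with no overlap between the groups. The 2 abundant ones, mt-Cytb and mt-Co1, stood at 58.6% and 70.2%, and mt-Atp8 was too sparse to compare. The same 5 were above the filter of a mean of 1 FPKM. Among all 10540 genes above it, 14.9% were called lower by limma (adjusted p below 0.05), 1.32% were called with an absolute log2 fold change above 1, and 22.9% had PGAM5 KD libraries that all lay below the control libraries (24.2% all above), and nothing is read from the comparison with these shares, since the same contrast chose the genes. Their median log2 fold change was -0.77, against 0.013 over all genes tested. Log2 fold changes are on the scale of log2(FPKM + 1) and understate the change of genes with few FPKM.

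**Figure D1:**
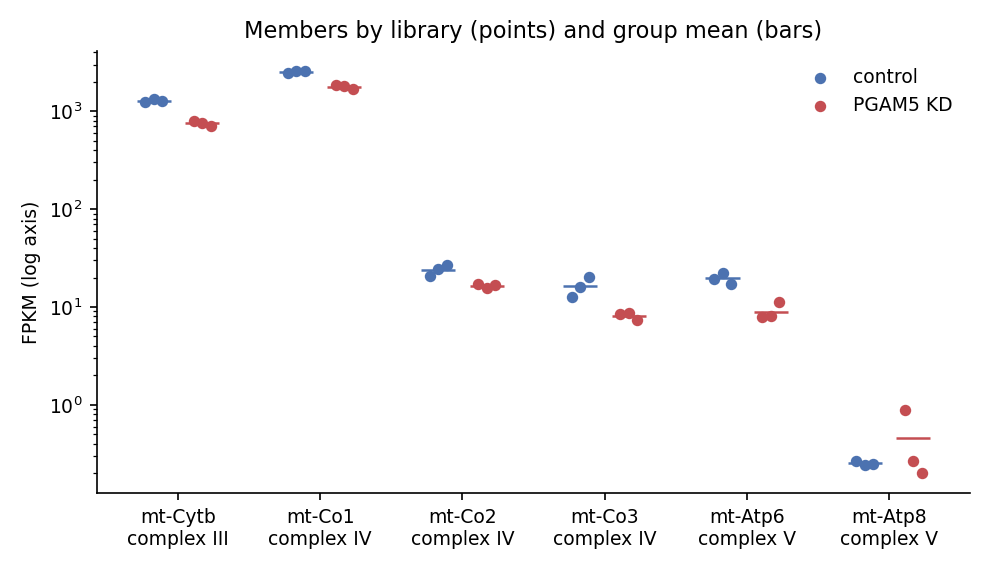
FPKM (log axis) of the 6 mitochondrially encoded subunits of complexes III, IV and V in each control and PGAM5 KD library (points, 3 per group), with group means (bars). mt-Cytb and mt-Co1 lie at 709 FPKM or more and mt-Co2, mt-Co3 and mt-Atp6 at 27.1 FPKM or less in every library, and in these 5 every PGAM5 KD point is below every control point, while the points of mt-Atp8 overlap.

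mt-Cytb encodes cytochrome b, the membrane subunit of complex III that binds ubiquinol and the only one that mitochondria encode. It was at 1244, 1337 and 1272 FPKM in control replicates 1, 2 and 3, and at 797, 753 and 709 FPKM in PGAM5 KD replicates 1, 2 and 3. The groups were far apart relative to their spread. The means were 1284 ± 47.4 and 753 ± 43.8 FPKM (SD, n = 3), and the log2 fold change was -0.77 (standard error 0.049). Between 15641 and 30854 fragments stood behind each value, and Gm11410, its nearest nuclear relative, had 0 fragments in all 6 libraries.

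mt-Co1 encodes the catalytic core of complex IV, where oxygen is reduced, and was the most abundant of the 6 in every library. Its level was 2454, 2587 and 2585 FPKM in the control and at 1851, 1811 and 1689 FPKM in the PGAM5 KD libraries, with 50829 to 80645 fragments in each. The means of 2542 ± 75.7 and 1784 ± 84.2 FPKM (SD, n = 3) gave a log2 fold change of -0.51 (standard error 0.042). No library crossed into the range of the other group. Gm13340 on chromosome 2, 97.6% identical to mt-Co1 over its whole length, had 0.524 FPKM in control and 0.522 FPKM in PGAM5 KD cells on average. At least 99.9% of the fragments on mt-Co1 and Gm29216 were on mt-Co1, most of which has no match in Gm29216. The 3 bases at the end of mt-Co1 are shared with mt-Ts1, a tRNA gene of the other strand, which had 0 fragments in every library.

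mt-Co2 encodes the subunit that takes electrons from cytochrome c, and mt-Co3 the third core subunit of the same complex. mt-Co2 was at 20.7, 24.6 and 27.1 FPKM in the control and at 17.3, 15.5 and 16.7 FPKM in the PGAM5 KD libraries (log2 fold change -0.52, standard error 0.096). mt-Co3 was at 12.7, 15.9 and 20.4 FPKM in the control and at 8.42, 8.78 and 7.32 FPKM in the PGAM5 KD libraries (log2 fold change -0.90, standard error 0.16). Both were spread more widely among the control libraries than among the PGAM5 KD libraries, with SDs of 3.24 against 0.936 FPKM for mt-Co2 and 3.89 against 0.758 FPKM for mt-Co3. The fragments behind each value numbered 192 to 362 for mt-Co2 and 125 to 313 for mt-Co3, a small share of those on mt-Co1.

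mt-Atp6 and mt-Atp8 encode subunits of the membrane part of complex V, and mt-Atp6 forms part of the path that protons take. mt-Atp6 was at 19.3, 22.4 and 17.3 FPKM in the control and at 7.82, 8.004 and 11.1 FPKM in the PGAM5 KD libraries. The means were 19.7 ± 2.58 and 8.99 ± 1.87 FPKM (SD, n = 3), with 99 to 308 fragments per library. The log2 fold change of mt-Atp6, -1.06 (standard error 0.14), lay furthest from 0 among the 5, but the ranges of 1 standard error around mt-Atp6 and mt-Co3 overlapped. mt-Atp8 was at 0.270, 0.243 and 0.251 FPKM in the control and at 0.892, 0.270 and 0.201 FPKM in the PGAM5 KD libraries. These values stand for 1 fragment in each library except PGAM5 KD replicate 1, which had 4. Against a floor of 3 fragments no difference in mt-Atp8 was detectable at these counts, and no fold is given.

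By level per kilobase, the order was mt-Co1, mt-Cytb, then mt-Co2, mt-Atp6 and mt-Co3, then mt-Atp8. In control libraries mt-Co2, at 24.1 ± 3.24 FPKM (SD, n = 3), mt-Atp6, at 19.7 ± 2.58 FPKM, and mt-Co3, at 16.3 ± 3.89 FPKM, overlapped as neighbours. In PGAM5 KD libraries mt-Co2 stood above both others in every library, while mt-Atp6, at 8.99 ± 1.87 FPKM, and mt-Co3, at 8.17 ± 0.758 FPKM, overlapped. The low level of mt-Co2, mt-Atp6 and mt-Co3 went with their nuclear copies. Across the 13 mitochondrial mRNAs, the 5 that lay to 98.99% or more of their length in an annotated nuclear gene of at least 99% identity (mt-Co2, mt-Atp6, mt-Co3, mt-Nd3 and mt-Nd4l) were between 1.67 and 27.1 FPKM. The 5 with an alignable part of 0% at that identity, apart from mt-Atp8, were between 269 and 1834 FPKM (mt-Nd1, mt-Nd2, mt-Nd5, mt-Nd6 and mt-Cytb). mt-Co1 and mt-Nd4, with 31.3% and 63.6% in such a copy, were between 244 and 2587 FPKM, and mt-Atp8 was low without an annotated copy. On chromosome 1 the 233 bases between Gm10925 and Gm28661 equal in number the bases between the matching points of the mitochondrial genome, where most of mt-Atp8 lies, but no gene is annotated there and the sequences were not compared. How fragments that match more than 1 place were counted is not given in the sources used here, and its part in these low levels was not tested. The FPKM of mt-Co2, mt-Co3, mt-Atp6 and mt-Atp8 should be read as the level of what was assigned to them, not as the level of the mRNA. For mt-Co1 this caution covers the 31.3% of its length in such a copy.

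The 4 pseudogenes of chromosome 1 were also lower in PGAM5 KD cells on average, while Gm13340 stayed at 0.524 and 0.522 FPKM and Gm11410 at 0. Summed over the 10 nuclear genes that resemble a member (blastn, at least 85% identity over at least 100 bases), there were 47.3, 50.9 and 51.3 fragments in every 1000000 of the control and 31.03, 29.4 and 26.6 in every 1000000 of the PGAM5 KD libraries. Every PGAM5 KD library was below every control library, with means of 49.8 ± 2.19 and 28.99 ± 2.27 in every 1000000 (SD, n = 3). These sums are a description, since most of their fragments lie in sequence identical to the members. By pseudogene, mean FPKM was 27.3 in control and 16.5 in PGAM5 KD cells for Gm28661, 22.9 and 11.6 for Gm10925, 15.6 and 9.60 for Gm28437, and 5.66 and 3.55 for Gm29216. Of the fragments on each pair of gene and copy, the mitochondrial gene held between 46.8% (control replicate 1, 95% Wilson interval 42.7% to 51.0%) and 55.3% (PGAM5 KD replicate 3, 50.9% to 59.6%) for mt-Co2. For mt-Atp6 this share ran from 39.4% (PGAM5 KD replicate 2, 33.6% to 45.6%) to 49.7% (control replicate 2, 45.8% to 53.6%). For mt-Co3 it ran from 44.8% (PGAM5 KD replicate 1, 39.4% to 50.2%) to 58.3% (control replicate 3, 54.1% to 62.4%). These intervals cover counting error only. Neither the gene nor its copy held nearly all of the fragments in any library. The share of mt-Co1 against Gm29216 is not comparable, since only 31.3% of mt-Co1 lies in that copy. Since each pair shares its sequence, a gene and its copy are not independent measurements. With the copies added in, the log2 fold change of mt-Co2, mt-Co3 and mt-Atp6 moved by less than the spread between replicates.

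**Figure D2:**
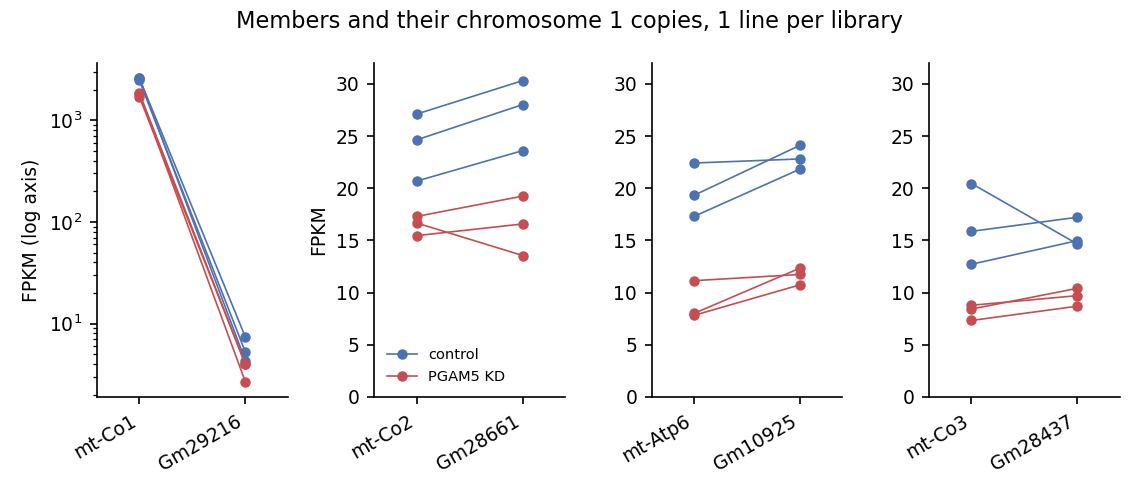
FPKM of mt-Co1, mt-Co2, mt-Atp6 and mt-Co3 and of the chromosome 1 pseudogene that matches each, with 1 line per library (log axis for mt-Co1, linear axes for the others). mt-Co1 is far above Gm29216, while each of the other 3 and its copy lie within the same range and the PGAM5 KD lines lie below the control lines.

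The 7 complex I mRNAs are transcribed from the same genome, and 6 of them had levels relative to control within the range of the members. The list was written with earlier results of these data known, so these mRNA levels are also given as a description, without a test. The median log2 fold change over the 7 was -0.71. They stood at 57.8% (mt-Nd2) to 62.5% (mt-Nd5) of control, apart from mt-Nd4l, at 95.3% with overlapping libraries and a mean of 2.91 FPKM in control cells. mt-Nd3, at 60.4% of control, rested on 18 to 30 fragments per library. Both mt-Nd3 and mt-Nd4l lie almost wholly in a nuclear copy, so their FPKM is likewise only what was assigned to them. mt-Nd6, the only mRNA encoded on the other strand, was at 61.1% of control. Whether the libraries kept strand is not given, so this value may include fragments of the opposite strand. The 2 rRNAs were closer to control. mt-Rnr1, the small-subunit rRNA, was at 188 ± 3.05 FPKM in control cells and 174 ± 7.94 FPKM (SD, n = 3) after the knockdown, 92.8% of control. mt-Rnr2, the large-subunit rRNA, was at 76.0 ± 4.82 and 63.1 ± 9.59 FPKM with overlapping libraries, 83.1% of control. Neither rRNA passed the test on FPKM. Both passed, lower in PGAM5 KD cells, after scaling to TPM or quantile normalization, with array weights and without PGAM5 KD replicate 1, where their median log2 fold change was between -0.28 and -0.22, and 1 of them passed with voom, the replicate block or the GC and length correction. The RNA was selected for poly(A) tails, so these rRNA levels are not a measure of the ribosomes.

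**Figure D3:**
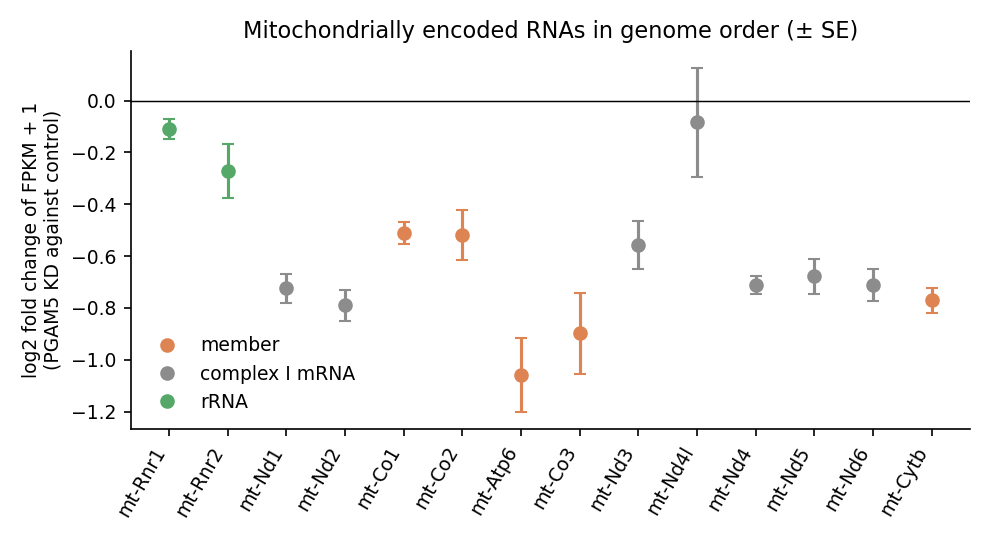
Log2 fold change of FPKM + 1 (PGAM5 KD against control) with its standard error for each mitochondrial mRNA and rRNA tested, in the order of the mitochondrial genome. mt-Co1 and mt-Co2 lie at -0.51 and -0.52, mt-Cytb at -0.77, mt-Co3 and mt-Atp6 lowest at -0.90 and -1.06, and the rRNAs nearest to 0 apart from mt-Nd4l.

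Among the abundant mRNAs, mt-Co1 was lowered less than mt-Cytb. The ratio of mt-Co1 to mt-Cytb within a library, which a scaling factor common to a library cannot alter, was 1.97, 1.94 and 2.03 in the control and 2.32, 2.41 and 2.38 in the PGAM5 KD libraries. The groups did not overlap, with means of 1.98 ± 0.0489 and 2.37 ± 0.0431 (SD, n = 3). The ratio of mt-Co1 to mt-Nd1 also rose without overlap, from 1.41 ± 0.0242 to 1.63 ± 0.0820, whereas that of mt-Nd1 to mt-Cytb, 1.41 ± 0.0292 and 1.45 ± 0.0471, overlapped. The ratio of mt-Cytb to mt-Nd6 was slightly lower without overlap, at 2.47 ± 0.0359 and 2.38 ± 0.0635, and that of mt-Cytb to mt-Nd5 overlapped. Against mt-Rnr1, both were lower. The ratio of mt-Co1 to mt-Rnr1 was 13.5 ± 0.328 in control and 10.3 ± 0.487 in PGAM5 KD cells, and that of mt-Cytb to mt-Rnr1 was 6.84 ± 0.145 and 4.32 ± 0.177, both without overlap. The members' share of all fragments on mitochondrial mRNAs was 56.8% to 57.0% in control and 58.6% to 60.1% in PGAM5 KD libraries, in which mt-Co1 made up most of the members' fragments.

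The nuclear-encoded subunits of the same complexes did not fall with their mitochondrial partners. Of 46 genes listed as such, 41 were above the filter. Of these 41, 19 were called higher in PGAM5 KD cells, 0 lower and 22 neither (limma, adjusted p below 0.05 over all genes tested). The share called higher among all genes tested was 16.8%. The median log2 fold change was 0.17 and 37 of 41 were above 0. The rises were small, at most 0.31 on the log2 scale. After scaling to TPM, 9 were higher and 1, Cox6c, was lower, and the median was 0.092. After quantile normalization 10 were higher and 1, Atp5a1, was lower. After the correction for GC content and length 10 were higher and 1, Cox6c, was lower, the median was 0.061 and 29 of 41 were above 0.

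In complex III, 3 of 9 nuclear subunits rose. Uqcrq was at 61.1, 57.4 and 57.2 FPKM in the control and at 68.7, 72.8 and 76.6 FPKM in the PGAM5 KD libraries (log2 fold change 0.31, adjusted p = 0.00426 from limma). Uqcrc1, a core subunit on the matrix side, rose from 77.6 ± 0.959 to 87.6 ± 1.05 FPKM (SD, n = 3; log2 fold change 0.17, adjusted p = 0.00484 from limma, 0.0596 after scaling to TPM). Uqcr11 rose by 0.28 on the log2 scale (adjusted p = 0.0276 from limma), and its call was lost without control replicate 2 or 3 or PGAM5 KD replicate 3 (adjusted p from 0.0669 to 0.0835), without the filter, after both rescalings and after the correction for GC content and length (adjusted p from 0.0716 to 0.215). Uqcrfs1, the Rieske iron-sulfur protein, and Cyc1, cytochrome c1, which pass electrons on from the site that cytochrome b forms, were at log2 fold changes of 0.022 and 0.034 and did not pass the test. Per library, mt-Cytb was 15.8, 17.4 and 16.5 times the median nuclear subunit of complex III in the control and 9.02, 8.72 and 8.06 times in the PGAM5 KD libraries.

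In complex IV, 7 of 13 nuclear subunits above the filter rose. Cox4i1, a regulatory subunit, was at 251, 249 and 246 FPKM in the control and at 283, 295 and 306 FPKM in the PGAM5 KD libraries (log2 fold change 0.24, adjusted p = 0.00248 from limma). Cox8a rose by 0.30, Cox7b, Cox5a and Cox7a2l by 0.23 each on the log2 scale, with adjusted p-values of 0.00281, 0.0101, 0.00497 and 0.00413 from limma. The call of Cox8a was lost after quantile normalization (adjusted p = 0.0771 from limma), that of Cox7b after scaling to TPM (adjusted p = 0.0549 from limma), and those of Cox8a, Cox7b and Cox7a2l after the correction for GC content and length (adjusted p from 0.0516 to 0.114). The level of mt-Co1 was 24.6, 28.4 and 28.1 times that of the median nuclear subunit in the control and 18.0, 17.2 and 15.8 times in the PGAM5 KD libraries, without overlap.

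In complex V, 9 of the 19 nuclear genes listed rose. That list also counts an inhibitory factor and a coupling factor of the complex, neither of them called. Usmg5, a small membrane subunit, went from 328 ± 8.03 to 405 ± 31.3 FPKM (SD, n = 3; log2 fold change 0.30, adjusted p = 0.00821 from limma, 0.103 after quantile normalization). Atp5o, of the peripheral stalk, rose by 0.28 and Atp5d, of the central stalk, by 0.25 on the log2 scale (adjusted p = 0.00914 and 0.00816 from limma). Atp5e rose by 0.31 and Atp5l by 0.25 on the log2 scale (adjusted p = 0.0248 and 0.0414 from limma). The call of Atp5e was lost without any 1 of the 3 control libraries (adjusted p from 0.0514 to 0.0766), and that of Atp5l without control replicate 1 or 3 or PGAM5 KD replicate 1 or 2 (adjusted p from 0.104 to 0.115). Both calls were also lost after scaling to TPM (adjusted p = 0.0541 for Atp5e and 0.126 for Atp5l) and without the filter (0.0701 and 0.0947), that of Atp5e after the correction for GC content and length (0.088), and that of Atp5l after quantile normalization (0.069), without the mean-variance trend (0.0602) and with the replicate block (0.0549).

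**Figure D4:**
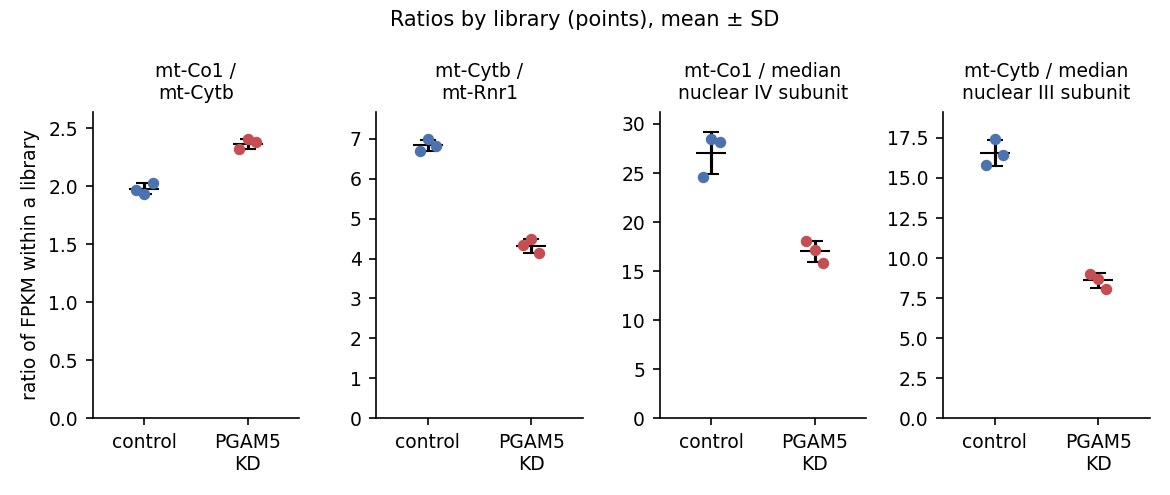
FPKM ratios within each library (points, 3 per group) with mean and SD. mt-Co1 over mt-Cytb was higher in PGAM5 KD libraries (1.98 against 2.37 on average), and mt-Cytb over mt-Rnr1, mt-Co1 over the median nuclear complex IV subunit and mt-Cytb over the median nuclear complex III subunit were lower, each without overlap.

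Assembly factors help to build the complexes around the mitochondrially made subunits. Of 27 above the filter, 7 were called higher and 1 lower in PGAM5 KD cells (limma, adjusted p below 0.05), a total share of 29.6% against 31.7% of all genes tested. After scaling to TPM 4 were higher and 2, Coa5 and Oxa1l, lower. Without PGAM5 KD replicate 3, 5 passed in all, of which 4 were higher. Higd1a, a small inner-membrane protein that binds complex IV, was at 11.2, 9.72 and 9.20 FPKM in the control and at 14.9, 17.1 and 16.1 FPKM in the PGAM5 KD libraries (log2 fold change 0.63, adjusted p = 0.00152 from limma). Cmc1 and Coa3, both of which bind newly made mt-Co1 protein, rose by 0.37 and 0.32 on the log2 scale (adjusted p = 0.00316 and 0.0138 from limma), the call of Coa3 being lost after correction for GC content and length (adjusted p = 0.144). Uqcc3, of complex III assembly, and Cox19, of copper delivery to complex IV, rose by 0.33 and 0.29 on the log2 scale (adjusted p = 0.0321 and 0.0189 from limma). The call of Uqcc3 was lost without control replicate 2 or any 1 PGAM5 KD library (adjusted p from 0.0615 to 0.0907), and that of Cox19 without control replicate 3 or PGAM5 KD replicate 1 or 3 (adjusted p from 0.0533 to 0.0632). Uqcc3 also lost it without the filter, after scaling to TPM, with voom and after the correction for GC content and length (adjusted p from 0.0699 to 0.205), and Cox19 after scaling to TPM (0.0503) and with the replicate block (0.0519). Coa5 was the 1 that fell, from 27.1 ± 1.44 to 22.3 ± 1.08 FPKM (SD, n = 3; log2 fold change -0.27, adjusted p = 0.0098 from limma).

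Of the nuclear-encoded factors that express the mitochondrial genome, some rose and some fell on FPKM, and the balance depended on the scaling. Of 45 above the filter, 5 were called higher and 6 lower (limma, adjusted p below 0.05), a total share of 24.4% against 31.7% of all genes tested. After scaling to TPM 1 was higher and 13 were lower, with voom 2 were higher and 9 lower, and after the correction for GC content and length 1 was higher and 7 were lower. This count rested on all 6 libraries together, since leaving out control replicate 1, 2 or 3 or PGAM5 KD replicate 1, 2 or 3 left 4 to 6 calls. Lrpprc, which stabilises mitochondrial mRNAs and supports their polyadenylation, was at 29.6, 28.6 and 29.8 FPKM in the control and at 22.9, 24.1 and 23.4 FPKM in the PGAM5 KD libraries (log2 fold change -0.31, standard error 0.038, adjusted p = 0.00142 from limma). Polrmt, the mitochondrial RNA polymerase, was at 9.49, 9.95 and 9.84 FPKM in the control and at 7.26, 8.09 and 8.19 FPKM in the PGAM5 KD libraries (log2 fold change -0.28, standard error 0.058, adjusted p = 0.0111 from limma). For both, no PGAM5 KD library reached the control range, and the call held without any 1 library and under each rescaling. Slirp, the partner of Lrpprc, had a log2 fold change of 0.34 with overlapping libraries and did not pass the test (adjusted p = 0.271 from limma).

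Pnpt1, a subunit of the RNA-degrading enzyme of mitochondria, rose from 29.8 ± 2.08 to 36.3 ± 1.79 FPKM (SD, n = 3; log2 fold change 0.28, adjusted p = 0.0147 from limma), and this call held under every alternative. Fastkd2 and Tbrg4, RNA-binding proteins of mitochondria, and Elac2, which cuts the 3′ ends of tRNAs, fell by 0.23, 0.21 and 0.18 on the log2 scale, and Ptcd1, Tefm, a transcription elongation factor, and Rexo2, which degrades short RNAs, rose by 0.23, 0.22 and 0.18 on the log2 scale. Each of these 6 lost its call without any 1 of 4 or more of the 6 libraries, with adjusted p-values of 0.0553 to 0.135, and under at least 2 of the other alternatives. Tfam, which packs mitochondrial DNA and starts transcription, had a log2 fold change of 0.11 and did not pass the test (adjusted p = 0.129 from limma), and of 6 factors of mitochondrial DNA replication 0 passed. Of 10 translation factors 1 passed, the elongation factor Tufm, which rose by 0.11 on the log2 scale (adjusted p = 0.0315 from limma). Tufm lost its call in 12 of 18 alternatives. Among them were leaving out any 1 library (adjusted p from 0.0549 to 0.0935 from limma) and scaling to TPM (adjusted p = 0.457 from limma).

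**Figure D5:**
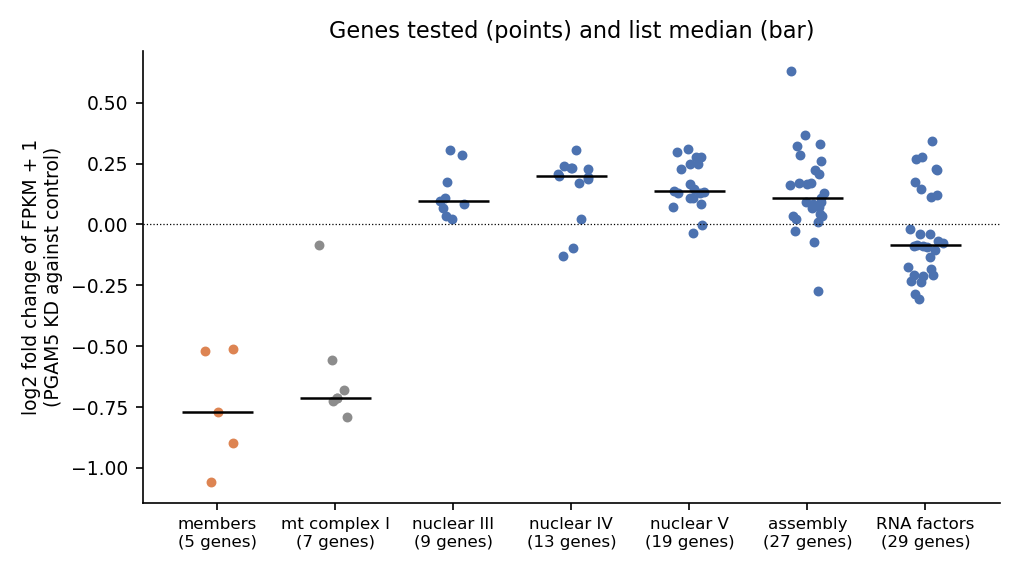
Log2 fold change of FPKM + 1 (PGAM5 KD against control) of each gene tested (points) with the list median (bar), for the members, the mitochondrial complex I mRNAs, nuclear subunits of complexes III, IV and V, assembly factors, and factors of mitochondrial transcription, RNA processing and stability. The mitochondrial lists have medians of -0.77 and -0.71, and the nuclear subunits of the 3 complexes have medians of 0.097, 0.20 and 0.14.

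The nuclear genes with the pattern most like that of the 6 were named by the Pearson correlation of log2(FPKM + 1) with the mean log2(FPKM + 1) of the 6 over the 6 libraries, among 10507 nuclear genes tested, copies left out. They were Scd2 (r = 0.999), Ppif (0.999), Tlr2 (0.998), Cep192 (0.996) and Grsf1 (0.996), and the most opposite were Pkm (r = -0.998), Naa10 (-0.998), Rps25 (-0.998), Oas1g (-0.998) and Unc119 (-0.997). The 6 libraries fall into the 2 groups, so a gene whose groups differ by more than their spread comes close to 1 or -1 whatever its size of change, and the values are a description of these libraries. The mean of the 6 takes in mt-Atp8, which had 4 fragments in PGAM5 KD replicate 1 and 1 in each other library. Which genes were named may depend in part on these few fragments, and this was not tested. Scd2 was at 96.1% of control and did not pass the test (log2 fold change -0.057, adjusted p = 0.147 from limma), and the other 4 most like the members were at 68.6% to 85.9% of control.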

How the data were processed

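RNA was sequenced from 6 libraries of LPS-treated iBMDMs, 3 control and 3 PGAM5 KD, grouped by their labels. The authors deposited FPKM per Ensembl gene. The submitters' processing notes name HISAT2 2.0.5, featureCounts 1.5.0-p3 and mm10, and the paper names iDEP, while the annotation, the treatment of fragments matching more than 1 place and whether the libraries kept strand are not given in the sources used here. Values of overlapping genes are therefore uncertain. GENCODE M21 (GRCm38) held 54495 of the 54532 genes. FPKM times exon length gave whole fragments within 0.01 for 96.8% to 97.1% of values under 1000 fragments, from which depth was recovered. Replicates of a group differed by more than sampling noise (chi-square per gene 4.83 to 8.19). The highest values, 7.575 and 8.188, came from the pairs with PGAM5 KD replicate 1, whose array weight was also the lowest (0.659).

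Genes whose FPKM averaged 1 or more were compared on log2(FPKM + 1) by limma 3.58.1 (R 4.3.3), with moderated variances that follow a mean-variance trend. Its p-values were two-sided, adjusted by Benjamini-Hochberg and called below 0.05. In a simulation of 10454 genes with 194 of them changed 2.5-fold, limma recovered 194, and 6.28% of its calls were false. The called changes in the nuclear lists are smaller, and recovery at their size was not simulated. Nuclear copies were sought with blastn 2.17.0 among GENCODE transcripts, from which the printed sequences also come. Python 3.11.15, pandas 2.3.3, scipy 1.17.1 and matplotlib 3.10.9 were used. Named were the members, Pgam5, genes that overlap a member, nuclear genes that resemble one and have at least 10 fragments on average, from each nuclear list at most 5 rises and 5 falls by size among called genes whose groups did not overlap, and the 5 genes most and least like the members. Uqcrfs1, Cyc1, Slirp, Tfam, Cox6c, Atp5a1, Oxa1l, the macrophage markers and Gm11410 were added after their values were seen. The members and lists were chosen with earlier results of these data known. Alternatives were a pseudocount of 0.1, no filter, a mean FPKM of at least 5, TPM, median centring, quantile normalization, a nuclear denominator, no trend, array weights, a replicate block, voom on recovered fragments, a GC and length correction, sums with nuclear copies or with mt-Atp8, and leaving out each library.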

Additional observations from a re-analysis of the deposited data

How the results depend on the processing

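Over the 18 alternatives that refitted all genes, the 5 testable members stayed lower in PGAM5 KD cells in each. Their median log2 fold change of -0.77 became -0.85 after scaling to TPM, -0.90 after quantile normalization and -0.83 after the GC and length correction, and was -0.81 to -0.73 with 1 library left out. The 19 called nuclear subunits became 10, 11 and 11 under the same 3 settings and 13 to 20 with 1 library left out. The 8 called assembly factors numbered 5 to 8 over all alternatives and 5 to 7 with 1 library left out, with 5 without PGAM5 KD replicate 3, and after scaling to TPM 4 were higher and 2 lower. The 11 called expression factors, 5 higher and 6 lower, numbered 4 to 14 over all alternatives, with 14 after scaling to TPM (1 higher, 13 lower), 5 without the filter, 5 with the replicate block and 4 to 6 with 1 library left out. Called genes over the whole table numbered 2340 to 3885 against 3346. After scaling to TPM, 1088 genes were called higher and 2282 lower, against 1771 and 1575 on FPKM. Of the 30 named nuclear genes, 18 lost their call under at least 1 alternative and 0 changed sign, while Atp5a1, called higher on FPKM, was called lower after quantile normalization. The cause of these changes was not tested. Samples with the same replicate number did not deviate together (correlations of -0.0197, 0.0162 and -0.0516), so the numbers do not pair the libraries. With the replicate block, 2652 genes were called, the members' median was -0.77, and 16 nuclear subunits and 7 assembly factors passed. The comparison of mt-Atp8 is limited by its 1 to 4 assigned fragments per library, and the cause of this low count was not tested.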
